A study of Homo sapiens with 6 samples.

Results

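The junction genes described here encode the proteins by which epithelial cells seal, hold and communicate across their shared borders. They were taken by symbol from a deposited table of 6641 genes, as every listed protein-coding gene of the claudin, tight junction scaffold, MARVEL domain, cadherin, protocadherin, catenin, nectin, desmocollin, desmoglein, plakophilin and connexin families, with CRB3 and LSR and without CDH1 and CDH2. This gave 73 genes: 16 of tight junctions, 13 of adherens junctions, 3 of desmosomes, 4 of gap junctions and 37 protocadherins. The types follow the symbols, so that CTNNBIP1, an inhibitor of beta-catenin, stands with the adherens junction genes. OCLN, which the choice of genes also names, was not analysed here.

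Total RNA of 2 human lung adenocarcinoma lines was sequenced, with 3 libraries labelled HCC827 and 3 labelled HCC827_Er. HCC827 is an established line that depends on mutant EGFR, a growth factor receptor; the series describes parental and resistant cells, and asks how histone Kcr acts on genes in resistance to EGFR inhibitors. The labels name neither a drug nor a treatment, give no clone or pool for HCC827_Er and no separate cultures behind the replicates, and the extraction protocol speaks of tissue although both groups are labelled as cell lines. The p-values therefore measure only the spread between these libraries, which may be technical.

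Tight junctions close the space between neighbouring epithelial cells. Claudins form their strands, and the claudins a cell makes set whether the strands are tight or let ions and water pass. Adherens junctions and desmosomes hold cells together through cadherins, which catenins and plakophilins tie to the actin and keratin filaments. Gap junctions are channels built of connexins through which small molecules pass from cell to cell. Protocadherins are cadherin relatives best known for the recognition of cells in the nervous system, and many of them are made from a gene cluster in which each isoform starts from its own first exon.

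Levels are in FPKM, which divides the fragments of a gene by its length and by the size of the library. Levels may thus be compared between genes, but the sequencing depth was unknown. The sums of all listed genes ran from 222927 to 224211 FPKM in the HCC827 libraries and from 184633 to 190415 FPKM in those of HCC827_Er. Differences between the lines are on the log2(FPKM + 1) scale, HCC827_Er minus HCC827, which understates the change of low genes, and were tested with limma across all genes with at least 1 FPKM in 3 or more libraries. A gene was called at a limma adjusted p under 0.05 (Benjamini-Hochberg) and a difference of at least 1, which is 2-fold. The table was already rich in genes that differ: 98.3% of the 5276 genes tested passed the adjusted p alone, and for 96.1% of the listed genes every library of 1 line lay above every library of the other.

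Junction genes moved in both directions, with more called higher than lower in HCC827_Er. Of the 73 genes, 43 passed the filter on low values, and 25 of these were called higher and 7 lower. Over all 5276 genes tested, 24.7% were called higher, 19.7% lower and 44.4% in either direction. All HCC827_Er libraries lay above those of HCC827 for 54 of the 73 genes and below them for 17, against 50.7% and 45.4% of all listed genes, and CDH13 and PCDHB9 overlapped. The median log2 difference was 1.16 for the 43 junction genes and 0.43 for all genes tested. A gene high in 1 line only can pass the filter through that line alone and then has to differ. Of the 43 genes, 16 were below 1 FPKM in at least 1 library; of the other 27, 16 were called higher and 4 lower, against 36.2% called of the 3871 genes of the whole table with at least 1 FPKM in all 6 libraries. Rescaling the libraries by their median ratio moved the median difference of all genes by -0.25 and left 18 junction genes called higher and 8 lower, while all genes then gave 902 higher and 1671 lower in place of 1304 and 1041. Rescaling to equal sums moved it by 0.18 and gave 25 junction genes higher and 7 lower, and 1825 and 794 of all genes. A pseudocount of 5 in place of 1, which shrinks the differences of low genes, left 12 junction genes called higher and 4 lower, and 579 and 506 of all genes. The calls that ended were those of CLDN9, CLDN16, CGNL1, CDH24, CTNNBIP1, NECTIN3, PKP2, PKP3, DSC2, GJA1, PCDH1, PCDHA4, PCDHA11, PCDHAC2, PCDHGA10 and PCDHGB1.

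**Figure D1:**
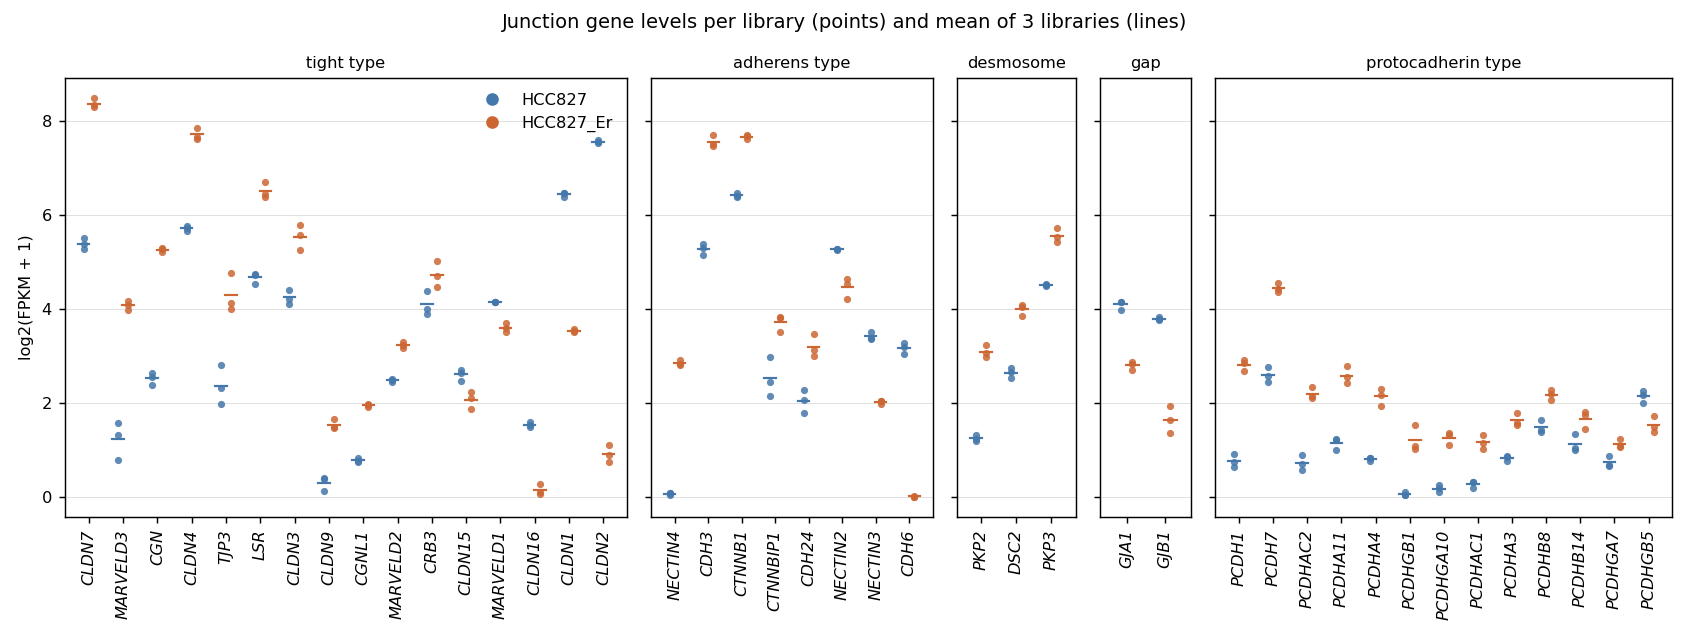
Level of the tested junction genes named in the text in each library, as log2(FPKM + 1) on the vertical axis, with genes on the horizontal axis ordered within each junction type from the highest to the lowest difference; points are libraries (HCC827 blue, HCC827_Er orange) and lines the mean of 3. CLDN7, CLDN4, CDH3 and CTNNB1 stand highest in HCC827_Er, CLDN2 stands highest in HCC827, and for every gene shown all libraries of 1 line lie above all of the other.

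The claudins exchanged places. In HCC827 the most abundant transcript of the listed claudins was that of CLDN2, which forms a pore for cations and water. It stood at 187, 184 and 191 FPKM in the 3 libraries of HCC827 and at 1.14, 0.670 and 0.850 FPKM in HCC827_Er. No library of HCC827_Er came near those of HCC827, and CLDN2 showed the largest difference among all junction genes (log2 difference -6.65, SE 0.099, limma adjusted p = 4.73e-10). CLDN1, a sealing claudin that the barrier of the skin depends on, fell from 82.0, 87.8 and 87.8 FPKM to 10.4, 10.6 and 10.8 FPKM (log2 difference -2.91, SE 0.064, limma adjusted p = 2.37e-09). In the other direction, CLDN7, a claudin that binds the adhesion molecule EPCAM, rose from 37.5, 40.8 and 44.4 FPKM to 356, 321 and 313 FPKM (log2 difference 2.98, SE 0.076, limma adjusted p = 4.90e-09). CLDN4, a sealing claudin, rose from 49.3, 53.2 and 51.9 FPKM to 231, 200 and 196 FPKM (log2 difference 2.00, SE 0.072, limma adjusted p = 2.79e-08). CLDN3, also a sealing claudin, rose from 20.2, 16.1 and 17.6 FPKM to 53.8, 46.3 and 37.0 FPKM (log2 difference 1.29, SE 0.14, limma adjusted p = 2.14e-05). The call of CLDN3 ended with median-ratio rescaling (0.96). None of these claudins overlapped between the lines.

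The 8 listed claudins summed to 391 ± 8.16 FPKM in the HCC827 libraries and to 601 ± 50.4 FPKM in those of HCC827_Er (SD, n = 3). Within that sum CLDN2 held 47.95% ± 0.715 in HCC827 and 0.146% ± 0.0294 in HCC827_Er, and CLDN1 21.97% ± 0.569 and 1.77% ± 0.178. CLDN7 held 10.5% ± 0.662 of the sum in HCC827 and 54.9% ± 0.816 in HCC827_Er, and CLDN4 13.2% ± 0.428 and 34.7% ± 0.368 (SD, n = 3). The order in HCC827 was CLDN2, CLDN1, CLDN4, CLDN7, CLDN3, CLDN15, CLDN16 and CLDN9, and in HCC827_Er CLDN7, CLDN4, CLDN3, CLDN1, CLDN15, CLDN9, CLDN2 and CLDN16. Shares within a library do not depend on how libraries are scaled, and for each of these 4 claudins the shares of the lines did not overlap. These are transcripts, and protein was not measured.

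CLDN9, CLDN15 and CLDN16 stayed at 5.51 FPKM or below in every library. CLDN16, known from the reabsorption of magnesium in the kidney, fell from between 1.78 and 2.02 FPKM to between 0.0400 and 0.200 FPKM. CLDN9, known from the inner ear, rose from between 0.0900 and 0.320 FPKM to between 1.77 and 2.17 FPKM. CLDN15, a cation pore of the intestine, stood at 5.09 ± 0.497 and 3.22 ± 0.523 FPKM (SD, n = 3) and was not called (log2 difference -0.53, limma adjusted p = 0.00370).

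**Figure D2:**
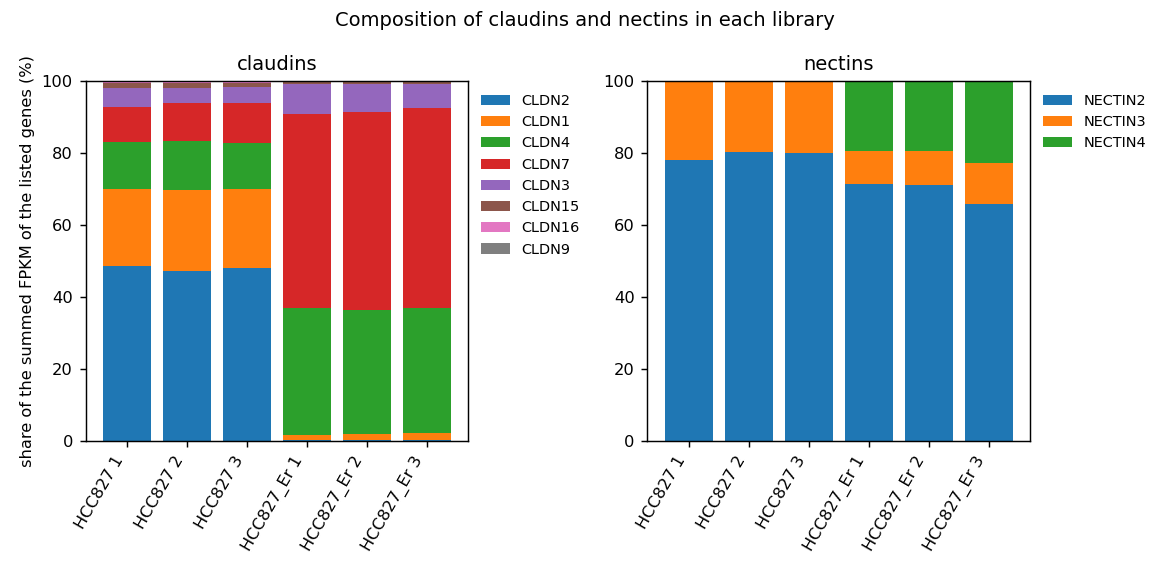
Share of each gene in the summed FPKM of its family's listed genes, in percent on the vertical axis, for each library on the horizontal axis; the panels show 8 claudins and 3 nectins. CLDN2 and CLDN1 fill most of the HCC827 claudin bars and CLDN7 and CLDN4 most of the HCC827_Er bars, and NECTIN4 appears in HCC827_Er while NECTIN2 leads in both lines.

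Both pairs of listed claudin genes within 100 kb of each other were called in a shared direction, which was not tested. Of all genes tested, 24.7% were called higher and 19.7% lower. CLDN3 and CLDN4, both called higher, lie 29.3 kb apart on chromosome 7, at chr7:73768997-73770270 and chr7:73799542-73832693 (GENCODE 29, GRCh38). CLDN1 and CLDN16, both called lower, lie at chr3:190305701-190322475 on the minus strand and chr3:190322541-190412143 on the plus strand, with 65 bases between the gene entries, where a noncoding transcript of CLDN16 starts; its coding transcripts start farther into the gene. CLDN7 lies at chr17:7259903-7263983 and CLDN2 at chrX:106900164-106930861, each without another junction gene within 100 kb. CLDN7 overlaps a listed entry without a symbol on the same strand, ENSG00000262302, which averaged 0.317 FPKM in the first line and 5.90 FPKM in the second, so some reads cannot be told apart.

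The stretch before the start site follows here for the genes with the largest rise and the largest fall among tight junctions, adherens junctions, desmosomes and gap junctions, because these genes moved most and their upstream sequences differ in base composition. A CpG, a C followed by a G, is the place where vertebrate DNA can be methylated, and many promoters are rich in it. The sequences are from RefSeq (GRCh38.p14), run 5′ to 3′ on the strand of the gene up to the RefSeq start or to the first base that GENCODE 29 places in an exon, and show each CpG in capitals. CDH6 and PKP2 belong to the same rule and are named only.
CLDN7 (chr17:7263214-7263463, minus strand): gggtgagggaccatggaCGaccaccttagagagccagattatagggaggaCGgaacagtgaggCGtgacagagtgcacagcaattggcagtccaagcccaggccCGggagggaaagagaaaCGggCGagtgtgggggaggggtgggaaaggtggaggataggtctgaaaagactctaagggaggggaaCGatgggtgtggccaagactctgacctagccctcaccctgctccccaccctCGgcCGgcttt
CLDN2 (chrX:106899914-106900062, plus strand): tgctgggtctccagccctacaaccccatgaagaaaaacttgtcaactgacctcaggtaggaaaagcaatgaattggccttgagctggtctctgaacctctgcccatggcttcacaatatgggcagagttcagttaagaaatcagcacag
NECTIN4 (chr1:161089600-161089808, minus strand): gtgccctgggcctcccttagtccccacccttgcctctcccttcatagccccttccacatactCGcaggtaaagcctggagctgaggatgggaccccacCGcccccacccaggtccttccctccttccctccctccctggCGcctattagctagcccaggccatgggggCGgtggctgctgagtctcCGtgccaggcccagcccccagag
GJB1 (chrX:71214989-71215193, plus strand): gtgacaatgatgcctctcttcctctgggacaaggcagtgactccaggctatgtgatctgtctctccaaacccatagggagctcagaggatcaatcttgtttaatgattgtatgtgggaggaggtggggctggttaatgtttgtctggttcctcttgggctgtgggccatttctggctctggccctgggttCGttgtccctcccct
The stretch of CLDN7 holds 9 CpGs, that of NECTIN4 5, that of GJB1 1 and that of CLDN2 0, in runs of 250, 209, 205 and 149 bases. That of CLDN7 lies before the RefSeq start but within the longer GENCODE 29 entry of the gene. The CLDN2 stretch stops short of the CLDN2 entry, at an exon of another gene, since exons of any gene on either strand end a stretch. Over the full 250 bases before the RefSeq start, CLDN2 has 0 CpGs, as do 6.06% of the 35116 promoters in the table, whose median is 11. Promoters of 59 junction genes could be matched, with the first listed start taken where a gene has several. The 18 called higher had a median of 11 CpGs and 61.2% G and C, and the 6 called lower a median of 2 CpGs and 51.6%. Over all promoters the median was 58% G and C. The 6 called lower were split, with 28 CpGs for CLDN1 and 27 for NECTIN3, and 2 or fewer for CLDN16, GJB1, GJA1 and CLDN2. These are descriptions of few genes and carry no test.

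Letters of known motifs were also searched in these windows on both strands. CACCTG, or CAGGTG on the other strand, is an E-box bound by ZEB and SNAI repressors, and was found before 3 of 18 genes called higher, 0 of 6 called lower and 17.5% of all promoters. The 3 genes were NECTIN4, DSC2 and PCDH1. The match of NECTIN4 is not in the stretch printed above. It lies nearer the RefSeq start, past the first base that GENCODE 29 places in an exon. CRB3, which was not called, held 5 matches. AACCNGTT, or AACNGGTT on the other strand, is the grainyhead-type motif and was found before CGN among the genes called higher, before 0 of 6 called lower and before 1.49% of all promoters. TATAAA, the core of a TATA box, or TTTATA on the other strand, was found before 0 of 18 genes called higher, 0 of 6 called lower, 5 of the 29 clustered protocadherins and 10.7% of all promoters. A match is only a run of letters.

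Other tight junction proteins were mostly higher in HCC827_Er. CGN encodes cingulin, which links the junction to the actin and microtubule cytoskeleton; it rose from 5.21, 4.18 and 4.82 FPKM to 37.4, 36.0 and 37.96 FPKM (log2 difference 2.74, SE 0.092, limma adjusted p = 1.92e-08). Its relative CGNL1 rose from 0.710 ± 0.0557 to 2.86 ± 0.0929 FPKM (SD, n = 3), a call that ended with median-ratio rescaling (0.98). MARVELD3, a membrane protein of the occludin family, rose from 1.96, 1.48 and 0.730 FPKM to 14.8, 15.8 and 16.9 FPKM (log2 difference 2.85, SE 0.19, limma adjusted p = 1.09e-06). LSR recruits tricellulin to the corners where 3 cells meet, and rose from 25.3, 25.9 and 22.2 FPKM to 102, 82.7 and 86.4 FPKM (log2 difference 1.84, SE 0.094, limma adjusted p = 2.29e-07). TJP3, a scaffold of the zonula occludens family, rose from 2.92, 3.98 and 5.94 FPKM to 26.2, 14.96 and 16.5 FPKM, with the largest standard error among the tight junction genes (log2 difference 1.94, SE 0.25, limma adjusted p = 6.79e-05).

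The remaining 3 tight junction genes were not called. MARVELD2, which encodes tricellulin, stood at 4.56 ± 0.104 and 8.43 ± 0.390 FPKM, and CRB3, a protein of apical polarity, at 16.3 ± 3.24 and 25.7 ± 5.14 FPKM (SD, n = 3). MARVELD1, a related membrane protein, stood at 16.7 ± 0.103 and 11.1 ± 0.800 FPKM. All 3 passed the limma adjusted p and lay under 2-fold, and none of their libraries overlapped between the lines. Of the 16 tight junction genes, all tested, 9 were called higher, 3 lower and 4 were not called (7 higher and 3 lower with median-ratio rescaling). As deposited, 75% were called in either direction, against 44.4% of all genes tested. Among those called, CGNL1, CLDN9 and CLDN16 passed the filter through 1 line alone, which set their direction.

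Among the adherens junction genes the classical cadherins moved apart. CDH3 (chr16:68636189-68722616), which encodes P-cadherin of basal epithelial cells, rose from 40.6, 38.1 and 34.3 FPKM to 206, 181 and 175 FPKM (log2 difference 2.29, SE 0.083, limma adjusted p = 2.92e-08). CDH6 (chr5:31193750-31329146), a cadherin of the developing kidney, stood at 7.22, 8.67 and 8.10 FPKM in HCC827 and was listed at 0.0100, 0 and 0 FPKM in HCC827_Er (log2 difference -3.16, SE 0.11, limma adjusted p = 2.22e-08). No CDH3 or CDH6 library of either line came near the range of the other line. CDH6 passed the filter through HCC827 alone, so its direction, though not its size, was set by the filter. CDH24, which binds catenins, rose from 3.81, 2.45 and 3.16 FPKM to 9.95, 7.75 and 7.01 FPKM (log2 difference 1.16, SE 0.16, limma adjusted p = 0.000132), a call that ended with median-ratio rescaling (0.88). The other listed cadherins, CDH5, CDH13, CDH17 and CDH23, stayed at 1.12 FPKM or below in every library and were not tested. CDH5, a marker of endothelial cells, was listed at 0 in all 3 HCC827 libraries and between 0.520 and 0.750 FPKM in HCC827_Er. Without CDH1 and CDH2, the 7 listed cadherins summed to 49.9 ± 3.31 and 198 ± 17.7 FPKM in the respective lines, and CDH3 held 75.3% ± 1.47 and 95.0% ± 0.297 of these sums (SD, n = 3).

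The nectins, adhesion molecules of the immunoglobulin type that act beside the cadherins, also changed in make-up. NECTIN4 (chr1:161070995-161089599), which the antibody-drug conjugate enfortumab vedotin targets, rose from 0.030, 0.060 and 0.050 FPKM to 6.47, 6.0 and 6.05 FPKM (log2 difference 2.78, SE 0.10, limma adjusted p = 2.78e-08). NECTIN3 fell from 10.4, 9.25 and 9.33 FPKM to 3.12, 2.91 and 3.08 FPKM (log2 difference -1.40, SE 0.10, limma adjusted p = 2.05e-06). The antisense gene NECTIN3-AS1, which overlaps it, also fell, from 3.51 ± 0.668 to 0.603 ± 0.186 FPKM (SD, n = 3), and whether the reads were counted by strand is not given in the sources used here. NECTIN2, a ligand of immune receptors, was the most abundant of the listed nectins in both lines at 37.6 ± 0.203 and 21.1 ± 3.27 FPKM (SD, n = 3). It was not called as deposited (log2 difference -0.81) and passed as lower after median-ratio rescaling (-1.14). NECTIN4 passed the filter through HCC827_Er alone, so its direction, though not its size, was set by the filter. NECTIN4 made up 0.0989% ± 0.0330 of the nectin sum in HCC827 and 20.5% ± 1.94 in HCC827_Er.

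CTNNB1 encodes beta-catenin, which joins cadherins to the actin cytoskeleton and also carries the Wnt signal to the nucleus. It rose from 83.7, 81.7 and 87.5 FPKM to 206, 204 and 195 FPKM (log2 difference 1.25, SE 0.051, limma adjusted p = 6.14e-08). CTNNBIP1, which keeps beta-catenin from its DNA-binding partners, rose from 6.89, 3.45 and 4.42 FPKM to 13.2, 10.3 and 12.98 FPKM (log2 difference 1.19, SE 0.20, limma adjusted p = 0.000421). Neither gene overlapped between the lines, though CTNNBIP1 varied more within each. Both calls ended with median-ratio rescaling, at 0.91 and 0.89. CTNNA2, the alpha-catenin of neurons, stayed at 0.630 FPKM or below and was not tested. Of 12 known targets of beta-catenin signalling 4 were in the table and 3 were tested: RNF43, which removes Wnt receptors, rose from 0.00667 ± 0.0115 to 5.59 ± 0.274 FPKM, BAMBI fell from 31.6 ± 0.321 to 12.4 ± 0.316 FPKM, and DKK1 stood at 5.04 ± 1.07 and 3.95 ± 0.438 FPKM (SD, n = 3; limma adjusted p = 0.0961). RNF43 passed the filter through HCC827_Er alone. AXIN2, the best known of these targets, stood between 0.870 and 1.23 FPKM in HCC827 and between 0.200 and 0.330 FPKM in HCC827_Er and was not tested. Of the 8 adherens junction genes tested, 5 were called higher and 2 lower, and 2 higher and 3 lower with median-ratio rescaling. As deposited, 87.5% were called in either direction, against 44.4% of all genes tested. Among those called, CDH6 and NECTIN4 passed the filter through 1 line alone.

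All 3 listed desmosome genes were called higher, against 24.7% of all genes tested. No desmoglein was listed, so these 3 do not stand for the whole desmosome. PKP2, a plakophilin that ties desmosomal cadherins to desmoplakin, rose from 1.36, 1.48 and 1.28 FPKM to 6.91, 7.29 and 8.37 FPKM (log2 difference 1.84, SE 0.11, limma adjusted p = 7.69e-07). DSC2, a desmosomal cadherin, rose from 4.76, 5.25 and 5.67 FPKM to 13.5, 15.8 and 15.5 FPKM (log2 difference 1.35, SE 0.11, limma adjusted p = 3.06e-06). PKP3, the most abundant of the 3, rose from 21.8, 21.4 and 22.2 FPKM to 52.0, 44.9 and 41.8 FPKM (log2 difference 1.05, SE 0.086, limma adjusted p = 4.46e-06). With a pseudocount of 5 in place of 1 all 3 calls ended, at 0.97 for PKP2, 0.96 for DSC2 and 0.93 for PKP3. The call of PKP3 also ended with median-ratio rescaling (0.71) and without HCC827_Er replicate 1 (0.96). For each of the 3, the lowest HCC827_Er library stood above the highest of HCC827.

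The most abundant of the listed connexins in HCC827 were lower in HCC827_Er. GJA1, the most widespread connexin, fell from 14.8, 16.8 and 16.6 FPKM to 6.11, 5.47 and 6.25 FPKM (log2 difference -1.30, SE 0.097, limma adjusted p = 2.38e-06). GJB1, a connexin of liver and of myelinating cells, fell from 12.7, 12.48 and 13.1 FPKM to 2.84, 2.08 and 1.56 FPKM (log2 difference -2.14, SE 0.15, limma adjusted p = 1.63e-06). Neither overlapped between the lines. GJA1 stood above GJB1 in every library of both lines. GJB5, a connexin of the epidermis, stood between 0.050 and 0.210 FPKM in HCC827 and between 0.380 and 0.830 FPKM in HCC827_Er and was not tested. Of the 3 gap junction genes tested, 1 was called higher and 2 lower, and the same counts were found with median-ratio rescaling. Of all genes tested, 24.7% were called higher and 19.7% lower as deposited. With a pseudocount of 5 the call of GJA1 ended (-0.94), which left 1 called lower.

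**Figure D3:**
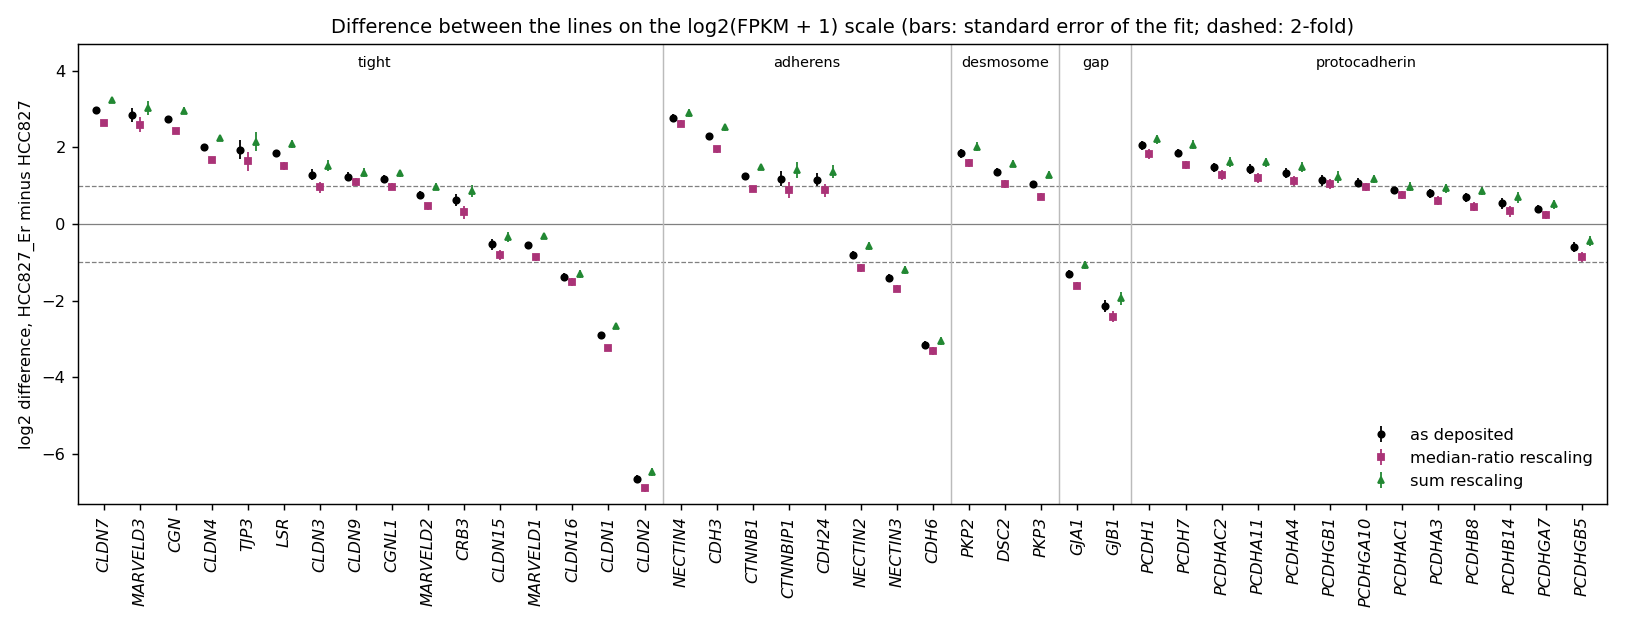
Log2 difference, HCC827_Er minus HCC827, with its standard error for the tested junction genes named in the text, grouped by junction type on the horizontal axis, as deposited (black circles), with median-ratio rescaling (purple squares) and with rescaling to equal sums (green triangles); dashed lines mark 2-fold. No gene changes its direction between the scalings, and genes near a dashed line, such as PKP3, CTNNB1 and NECTIN2, cross it.

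Protocadherins were the largest group, and most were low. PCDH7, a protocadherin outside the clusters, was the most abundant of those listed and rose from 5.74, 4.46 and 4.94 FPKM to 22.6, 20.3 and 19.6 FPKM (log2 difference 1.85, SE 0.11, limma adjusted p = 5.10e-07). PCDH1, an adhesion molecule of the airway epithelium, rose from 0.870, 0.680 and 0.540 FPKM to 6.51, 6.21 and 5.41 FPKM (log2 difference 2.05, SE 0.12, limma adjusted p = 6.27e-07). It passed the filter through HCC827_Er alone, so its direction, though not its size, was set by the filter. PCDH9, PCDH11X, PCDH12 and PCDH18 stayed at 1.22 FPKM or below in every library and were not tested. PCDH18 was listed at 0 in all 3 HCC827_Er libraries and between 0.050 and 0.310 FPKM in HCC827.

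The other 31 protocadherins belong to the alpha, beta and gamma clusters, which follow each other over 727 kb of chromosome 5 (chr5:140786136-141512979). The genes of the alpha cluster share their last exons, as do those of the gamma cluster, so reads of the shared part cannot be assigned to 1 isoform and the split between isoforms is uncertain. All 13 listed genes of the alpha cluster were higher in every HCC827_Er library than in any HCC827 library. Such a separation with HCC827_Er above was seen for 29 of the 31 clustered genes and for 50.7% of all listed genes. The alpha cluster summed to 5.04, 4.14 and 4.84 FPKM in HCC827 and 19.7, 19.9 and 18.4 FPKM in HCC827_Er, the beta cluster to 5.26 ± 0.515 and 10.7 ± 0.715 FPKM, and the gamma cluster to 5.61 ± 0.607 and 10.2 ± 0.572 FPKM (SD, n = 3).

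Of these 31 genes, 11 were tested, and 5 were called higher and 0 lower. The share called, 45.5%, was close to the 44.4% of all genes tested that were called in either direction. PCDHA11 rose from 1.33, 1.00 and 1.31 FPKM to 4.32, 5.86 and 4.84 FPKM (log2 difference 1.44, SE 0.13, limma adjusted p = 9.74e-06). PCDHAC2 rose from 0.653 ± 0.182 to 3.59 ± 0.367 FPKM and PCDHA4 from 0.747 ± 0.0493 to 3.42 ± 0.555 FPKM. Of the gamma genes, PCDHGB1 rose from 0.0400 ± 0.0265 to 1.33 ± 0.478 FPKM, and PCDHGA10 rose from 0.127 ± 0.0551 to 1.39 ± 0.212 FPKM (SD, n = 3). PCDHAC2, PCDHA4, PCDHGB1 and PCDHGA10 were below 1 FPKM in every HCC827 library and passed the filter through HCC827_Er alone. For them a rise, though not its size, was set by the filter. The call of PCDHGB1 ended without HCC827_Er replicate 1 (0.98) and that of PCDHGA10 with median-ratio rescaling (0.97).

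PCDHGB5 went the other way. It stood at 3.51, 2.99 and 3.74 FPKM in HCC827 and 1.81, 2.29 and 1.59 FPKM in HCC827_Er, and was the only clustered protocadherin whose HCC827_Er libraries all lay below those of HCC827 (log2 difference -0.61, SE 0.13, limma adjusted p = 0.00178, not called). It held 60.8% ± 1.05 of the summed gamma cluster in HCC827 and 18.6% ± 3.52 in HCC827_Er (SD, n = 3). The beta genes PCDHB8 and PCDHB14, with PCDHA3, PCDHAC1 and PCDHGA7, were tested and not called, with log2 differences between 0.40 and 0.88. PCDHB9 was the only clustered gene whose libraries overlapped between the lines. The clustered genes that were not tested stayed at 1.59 FPKM or below. They were PCDHA1, PCDHA2, PCDHA5, PCDHA6, PCDHA7, PCDHA8, PCDHA10 and PCDHA12 of the alpha cluster, PCDHB7, PCDHB9, PCDHB10, PCDHB11, PCDHB12 and PCDHB16 of the beta cluster, and PCDHGA4, PCDHGA5, PCDHGA6, PCDHGA11, PCDHGB2 and PCDHGB3 of the gamma cluster.

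The clustered genes also share a base composition before their starts. The 29 clustered genes with a promoter in the RefSeq table had a median of 36% G and C in the 250 bases before the start, against 64.6% for the 30 other junction genes and 58% for all promoters. PCDHAC1 and PCDHAC2 stood apart at 63.2% and 62.4%, and the other 27 lay between 30% and 48.8%.

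**Figure D4:**
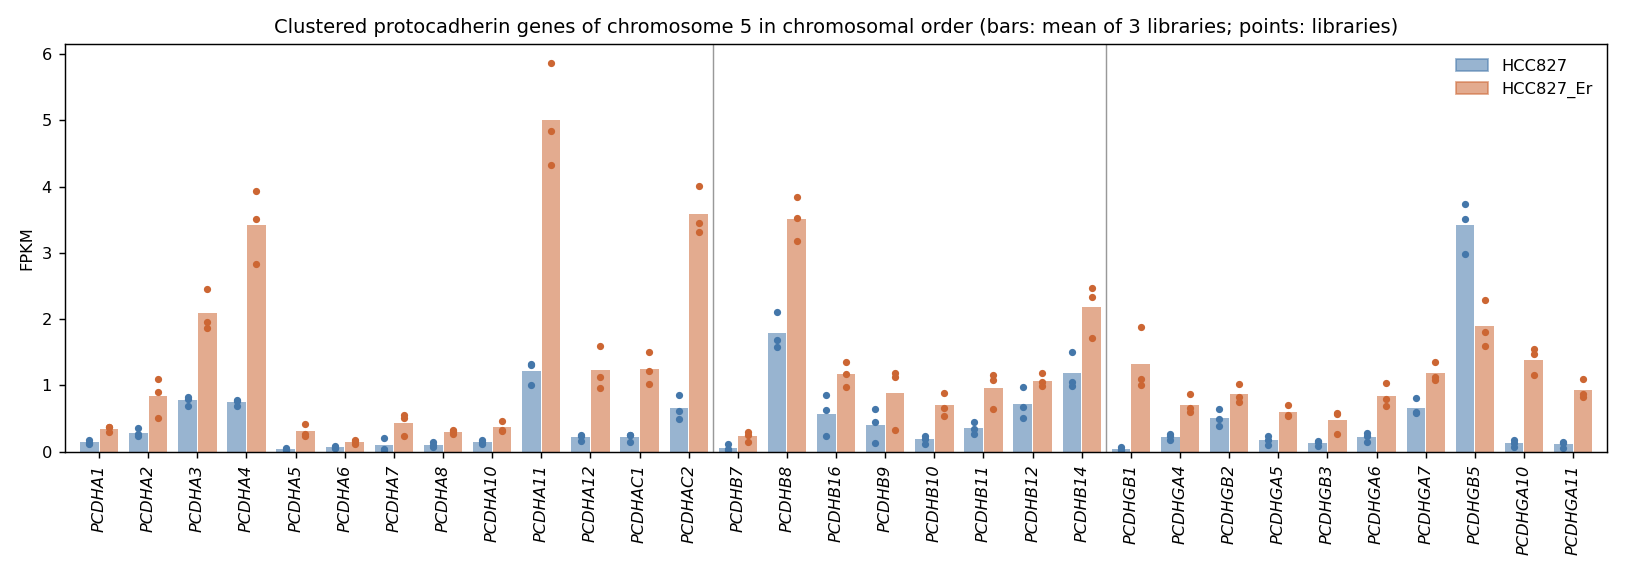
FPKM of the 31 clustered protocadherin genes in chromosomal order on the horizontal axis, with bars for the mean of 3 libraries and points for the libraries (HCC827 blue, HCC827_Er orange); grey lines separate the alpha, beta and gamma clusters. The orange bars exceed the blue ones for every gene but PCDHGB5, and PCDHA11 is the highest in HCC827_Er.

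Proteins that bind or build on the same junctions were looked up as a list of 44 names, of which 25 were in the table and 23 were tested. Of these, 11 were called higher and 1 lower (52.2% in either direction, against 44.4% of all genes tested), with a median log2 difference of 1.00 (9 higher and 3 lower with median-ratio rescaling, 14 and 1 with equal sums). CADM1, an adhesion molecule of the immunoglobulin type, rose from 0.147 ± 0.0306 to 14.6 ± 1.11 FPKM. SHROOM2, an actin-binding protein of apical junctions, rose from 0.0433 ± 0.0416 to 6.17 ± 0.398 FPKM, and EPCAM from 30.1 ± 0.429 to 297 ± 26.4 FPKM (SD, n = 3). CADM1 and SHROOM2 passed the filter through HCC827_Er alone, and this list too was drawn up with earlier results known. AMOTL2, an angiomotin of the junctional actin, was the gene called lower, at 92.6 ± 9.05 and 19.03 ± 1.94 FPKM (SD, n = 3), and is named after its values were seen.

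Of 22 transcription and splicing regulators known to act on junction genes, 15 were tested, and 7 were called higher and 5 lower. This was 80% in either direction, against 44.4% of all genes tested. The list was drawn up with earlier results of these data known, so the share is only a description. GRHL2, OVOL1 and TP63 passed the filter through HCC827_Er alone and ZEB2 through HCC827 alone, which set their direction. With median-ratio rescaling 6 were called higher and 6 lower, and with equal sums 9 and 3. The 4 largest differences were those of ESRP1, a splicing factor of epithelial cells, at 3.27 ± 0.233 and 87.6 ± 3.83 FPKM, GRHL2, a grainyhead factor, at 0.210 ± 0.0436 and 14.2 ± 1.89 FPKM, OVOL1, a repressor of mesenchymal genes, at 0.0567 ± 0.0666 and 7.39 ± 0.747 FPKM, and TP63, the regulator of basal cells, at 0.170 ± 0.0819 and 5.71 ± 0.746 FPKM (SD, n = 3). OVOL2, GRHL1 and EHF were also called higher. Those called lower included the repressors ZEB1, ZEB2 and SNAI2, named after their values were seen.

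Markers of cell types, listed with earlier results of these data known, were read in the same table. Of 8 epithelial names 6 were tested, and CDH1, EPCAM, CLDN4, ESRP1 and KRT19 were called higher, against 24.7% of all genes tested. KRT8, the most abundant of the 6 in HCC827, went the other way, from 1744 ± 45.9 to 1025 ± 31.7 FPKM (SD, n = 3). Its log2 difference of -0.77 lay under 2-fold and was not called (limma adjusted p = 4.15e-07). With median-ratio rescaling 5 of the 6 were called higher and 1 lower. The sums of the 6 ran from 2219 to 2309 FPKM in HCC827 and from 2806 to 2899 FPKM in HCC827_Er. Of 8 fibroblast names 3 were listed, with sums of 2.46 to 3.35 FPKM and 9.33 to 11.5 FPKM. COL1A1, a collagen, was called higher, LUM was not called (log2 difference -0.87), and COL3A1 was listed at 0 in all 3 HCC827_Er libraries. Of 8 endothelial names CDH5 and EGFL7 were listed, with sums of 8.48 to 9.57 FPKM and 6.83 to 7.78 FPKM. Of 8 leukocyte names 5 were listed, with sums of 172 to 179 FPKM and 131 to 144 FPKM. CD68, a lysosomal protein, made up most of these sums and was not called (log2 difference -0.57), while CSF1R, CORO1A, LAPTM5 and CD14 were called higher. CSF1R, CORO1A, LAPTM5 and CD14 each passed the filter through HCC827_Er alone, which set their direction. The part of such cells in the junction results was not tested, and in bulk RNA more cells of a type and more RNA per cell cannot be told apart.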

How the data were processed

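The 6 libraries, 3 per cell line, came from a TruSeq kit, as the labels' protocols say. The authors deposited a single table with the FPKM of each gene. Per the submitters' processing notes fastp, HISAT2 and StringTie were used, with the builds GRCh38.p14 and hg19 named without roles. Versions, annotation, strand setting and the rule for listing genes: not given in the sources used here. No 2 libraries of one line shared more than 4 identical values at 10 FPKM or above.

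Symbols were matched by identifier for 6636 of 6641 genes; types and positions came from GENCODE 29 and, where missing, gene types from RefSeq. Genes with at least 1 FPKM in 3 or more libraries were fitted on log2(FPKM + 1) with limma 3.58.1 in R 4.3.3 (cell line as the only term, mean-variance trend) and adjusted over all 5276. The steps were tested on simulated data. An exact permutation test of 3 against 3 libraries has a smallest two-sided p of 0.1 and was not used. Some items are not reported here. The other members are named, with values in every library for called members averaging at least 5 FPKM in the higher line, promoters for the largest differences in each direction of a type, and from each other list at most 4 called genes with the largest differences. NECTIN3-AS1, ENSG00000262302 and some low members' values per library were added after the values were seen. Members and lists were chosen with earlier results of these data known. Alternatives were pseudocounts, filters, scalings, limma settings, a replicate block and each library left out.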

Additional observations from a re-analysis of the deposited data

Results flagged for a closer look

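Entries that share a name with junction genes but encode no protein showed signal outside the comparisons above. CLDN10-AS1, an antisense gene at the CLDN10 locus, was listed at 0 in all 3 HCC827 libraries and at 0.960, 1.36 and 1.44 FPKM in HCC827_Er, a mean of 1.25 FPKM. PCDHA14, a pseudogene within the alpha protocadherin cluster, stood at 0.0100, 0 and 0.110 FPKM in HCC827 and at 0.390, 0.290 and 0.230 FPKM in HCC827_Er, a mean of 0.303 FPKM. Neither passed the filter on low values, so neither difference was tested.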

How the results depend on the processing

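None of the 43 tested junction genes changed direction under any of the 15 alternatives that could test it. A pseudocount of 5, which shrinks low genes, left 12 junction genes called higher and 4 lower, with 3 adherens junction genes higher and 1 lower, 0 desmosome genes higher, 1 gap junction gene lower and 1 protocadherin higher, and 579 higher and 506 lower of all genes. A pseudocount of 0.1 added PCDHA3 and PCDHAC1. Requiring at least 5 FPKM left 2 protocadherins tested, both called higher, and 867 of all genes called higher. With median-ratio rescaling 2 adherens junction genes were called higher, and 1671 of all genes lower. Leaving out each library in turn gave 23 to 25 junction genes called higher and 7 lower, and the lower value came without HCC827_Er replicate 1, where PKP3 and PCDHGB1 lost their calls. Whether the replicate numbers pair the libraries is not given by the labels. Same-numbered libraries correlated in their deviations with r of 0.11, -0.022 and 0.049, and differently numbered ones with r from -0.090 to 0.041. With 3 libraries per line these values cannot decide on a pairing. With the replicate block the junction genes called were 25 higher and 7 lower, as without it, and 1304 and 1041 of all genes. Fitting limma with no trend or with its robust option changed no call of a junction gene. Depth is unknown, so no counting error can be given for low values.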
